A study of Homo sapiens with 21 samples.

Results

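Single-exon genes are those annotated with no intron, whether or not they are expressed, and S9.6 peaks over them were examined in MDA-MB-436 cells. A gene counted as single-exon when the annotation in the deposited count table gave it exactly 1 exon, it lay on chromosomes 1 to 22 or X, it was at least 500 bp long, and its symbol did not start with SNOR, SCARNA, MIR, LOC, LINC or HIST. Of 26485 genes in the table, 3772 had 1 exon and 1323 met every part of the rule. A peak was taken as lying over such a gene when at least 1 bp overlapped, which gave 219 to 283 peaks per S9.6 library out of 32358 to 50963. The shortest genes kept were HYPM at 501 bp, KRTAP13-3 at 520 bp and RPL23P8 at 523 bp. The longest ones left out for length alone were KRTAP19-3 at 494 bp, PRG1 at 493 bp and OMP at 492 bp. The median length was 1399 bp. By RefSeq gene type, 925 of the 1323 were protein-coding, 231 pseudogenes and 153 long noncoding or antisense RNAs, and 14 were unmatched.

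MDA-MB-436 is a human triple-negative breast cancer line, and the series title places the study in BRCA1-mutant cells. All cells carried a doxycycline-inducible lentiviral hairpin, either shScr, the control, or shRNF8, which targets the ubiquitin ligase RNF8. DNA-RNA hybrids were captured from sonicated chromatin with the S9.6 antibody in 2 shScr and 4 shRNF8 libraries and, after an RNase treatment whose enzyme the labels give only as a code, in 2 further shScr and 4 further shRNF8 libraries. mRNA was sequenced in 3 shScr and 3 shRNF8 libraries, and 3 inputs were not analysed here. Nothing in the labels tells whether replicate libraries are separate cultures, or for how long the hairpins were induced. A p-value here therefore speaks of the spread among the libraries at hand, which may be technical.

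An R-loop forms when newly made RNA pairs with its DNA template behind the polymerase and leaves the other strand single; such structures are common near the starts and ends of transcribed genes and over G-rich sequence. A transcript with no intron is not spliced, and splicing factors that bind the nascent RNA are known to limit its pairing with DNA. Many single-exon genes arose by retroposition of a spliced transcript. Large receptor and structural protein families that most epithelial cells keep silent belong to the class, and so do immediate-early transcription factors such as JUN.

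The stretches just upstream of 6 single-exon genes are shown because these genes mark the extremes of the results: JUN, MALAT1 and JUNB had a peak in all 6 S9.6 libraries, and LDOC1, UBQLN2 and TMEM158 had none although their mRNA was abundant. The sequences are RefSeq's, read from build GRCh38.p14, written 5′ to 3′ on the gene's strand, and reach at most 30 bases into the transcript. Capitals mark GGGCGG, the core of the GC box, on either strand (CCGCCC), and neighbouring matches may run together.
JUN, chr1:58784084-58784278, minus strand: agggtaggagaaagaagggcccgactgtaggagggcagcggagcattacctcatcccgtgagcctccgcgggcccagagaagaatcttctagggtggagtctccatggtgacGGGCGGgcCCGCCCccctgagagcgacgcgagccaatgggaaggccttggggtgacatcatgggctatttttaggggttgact
MALAT1, chr11:65497573-65497767, plus strand: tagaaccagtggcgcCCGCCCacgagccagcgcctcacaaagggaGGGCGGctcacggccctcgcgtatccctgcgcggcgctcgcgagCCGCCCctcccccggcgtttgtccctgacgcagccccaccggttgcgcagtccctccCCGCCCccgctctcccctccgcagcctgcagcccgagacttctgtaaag
JUNB, chr19:12791321-12791515, plus strand: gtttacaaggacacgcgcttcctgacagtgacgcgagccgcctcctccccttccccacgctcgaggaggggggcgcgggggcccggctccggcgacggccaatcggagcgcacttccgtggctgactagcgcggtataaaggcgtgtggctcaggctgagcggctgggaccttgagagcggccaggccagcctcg
LDOC1, chrX:141177185-141177379, minus strand: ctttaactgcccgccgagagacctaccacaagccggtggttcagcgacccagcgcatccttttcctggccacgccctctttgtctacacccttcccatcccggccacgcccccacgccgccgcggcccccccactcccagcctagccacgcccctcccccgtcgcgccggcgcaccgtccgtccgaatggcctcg
UBQLN2, chrX:56563428-56563622, plus strand: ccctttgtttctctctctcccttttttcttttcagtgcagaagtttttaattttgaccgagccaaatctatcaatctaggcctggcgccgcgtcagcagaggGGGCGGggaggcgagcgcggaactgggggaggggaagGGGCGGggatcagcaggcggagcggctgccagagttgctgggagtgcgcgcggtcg
TMEM158, chr3:45226293-45226487, minus strand: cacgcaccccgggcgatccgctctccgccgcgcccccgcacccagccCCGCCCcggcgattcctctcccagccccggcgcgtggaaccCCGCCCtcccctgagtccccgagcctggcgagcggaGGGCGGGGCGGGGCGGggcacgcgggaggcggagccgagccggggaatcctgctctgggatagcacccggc

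Among the 3 genes with peaks, MALAT1 held 4 matches, JUN 2 and JUNB 0. Among the 3 without, TMEM158 held 5, UBQLN2 2 and LDOC1 0. Of 27305 RefSeq promoter windows of the same length, 39.6% held at least 1 match. GC content was 61.5% at JUN, 72.8% at MALAT1 and 69.7% at JUNB, against 70.8% at LDOC1, 60.5% at UBQLN2 and 80.0% at TMEM158. Genes with and without peaks thus overlapped in both features. A peak over a gene need not reach its printed stretch, and at MALAT1 the start was covered only in shRNF8 replicates 3 and 4. A RefSeq promoter was matched for 563 of the 1323 genes, or 42.6%, and a comparison of promoter composition over the whole class is therefore void.

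RNF8 mRNA was measured first, as a check of the labels. It stood at 28.9, 29.1 and 28.0 CPM (counts per 1000000 counts of the library after scaling) in the shScr libraries and at 9.33, 9.99 and 7.94 CPM in the shRNF8 libraries (log2 change −1.66, SE 0.13, edgeR quasi-likelihood test, adjusted p = 0.000165). mRNA libraries held 18121181 to 20006954 counts. VIM ranged from 893 to 1149 CPM and KRT8 from 496 to 888 CPM. KRT18 ranged from 306 to 506 CPM and ERBB2 from 48.4 to 62.7 CPM. EPCAM, ESR1, PGR and KRT19 stayed at or below 0.861 CPM. CD3E was 0 throughout, with PTPRC at or below 0.0506 CPM. The read depth of the S9.6 libraries is unknown. The peaks of shRNF8 replicates 3 and 4 covered 83.5 and 79.0 Mb, against 34.4 to 47.6 Mb in the other 4, and peak names inside these 2 lists carry the stems of replicates 1 and 2 although the peaks differ. In bulk libraries, fewer cells with a signal and less signal per cell cannot be told apart.

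Most single-exon genes had no S9.6 peak. A peak was found over 220 and 181 of the 1323 genes in the shScr libraries and over 176, 172, 222 and 210 in the 4 shRNF8 libraries, that is over 13.0% to 16.8%. In all, 302 genes (22.8%) had a peak in at least 1 S9.6 library and 114 (8.62%) in all 6. Over single- and multi-exon genes together the shares were 58.4% and 29.8%. Peaks over single-exon genes made up 0.547% to 0.692% of all S9.6 peaks.

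The comparison with multi-exon genes used the 18693 that met the same filters, and because these spanned a median of 26210 bp it was made within classes of gene span and mean CPM. Of the single-exon genes 1317 fell into a class with at least 5 multi-exon genes, and 12602 multi-exon genes shared those classes. On average 14.9% ± 1.69 (SD, n = 6 libraries) of the single-exon genes and 30.4% ± 3.40 of the like multi-exon genes had a peak. The share of single-exon genes was lower in 6 of 6 libraries, with a mean difference of −15.5 percentage points (exact two-sided sign-flip permutation test, p = 0.03125, the smallest that 6 libraries allow). In points, the difference narrowed to −6.87 among genes with no other gene within 1 kb and to −8.28 with the peak summit inside the gene. Both shares were also lower in these settings. Among genes without such a neighbour they were 7.63% to 9.98% of single-exon and 13.6% to 17.3% of multi-exon genes per library. With the summit inside they were 10.0% to 12.8% and 17.0% to 23.7%. The difference was −8.99 points when exonic length replaced span, and span was then not matched. Without shRNF8 replicates 3 and 4 it was −14.5 points, with p = 0.125 by the exact test, the smallest that 4 libraries allow.

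**Figure D1:**
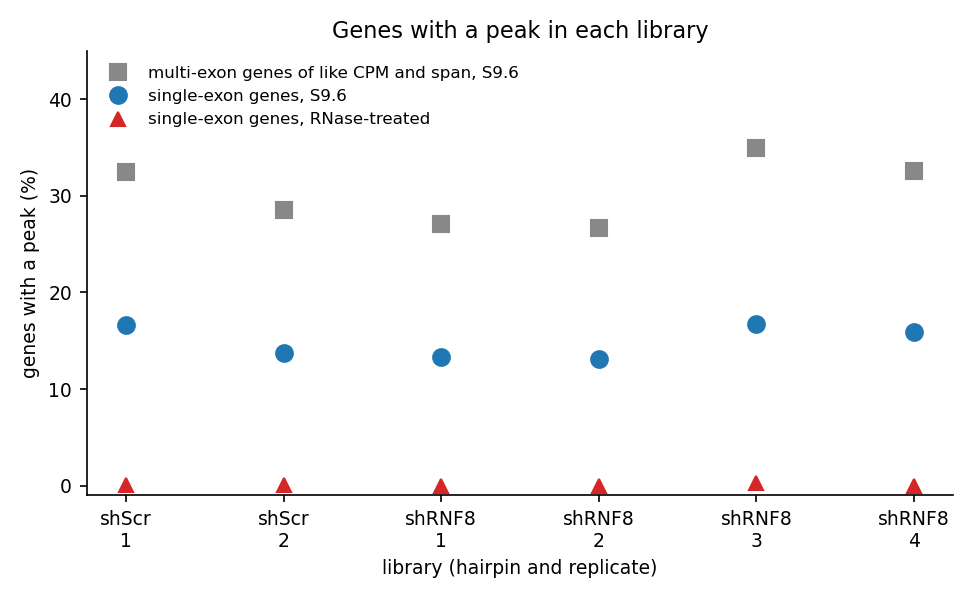
Share of genes (%) with an S9.6 peak in each of the 6 S9.6 libraries, for single-exon genes and for multi-exon genes of like span and CPM. In every library the single-exon share, 13.1% to 16.7%, sits below the multi-exon share, which runs from 26.7% to 35.0%.

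The 2 kinds of genes were not alike in all else. Of the single-exon genes 33.5% had another gene within 1 kb, against 42.1% of the multi-exon genes after weighting, and 25.2% against 26.7% overlapped another gene. Since the classes were set on span, exonic length differed: the class medians averaged 2005 bp for single-exon and 1011 bp for multi-exon genes. Within classes the matching was not exact. Class medians of mean CPM averaged 5.29 for single-exon and 6.73 for multi-exon genes, and those of span 2005 and 2167 bp.

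Single-exon genes with more mRNA had a peak in a larger share, and the deficit against multi-exon genes held in 5 of 6 CPM classes. Of the 862 single-exon genes under 0.1 CPM, 2.34% ± 0.709 (SD, n = 6) had a peak, against 14.7% ± 2.77 of multi-exon genes of like span. The share was 23.2% from 0.1 to 1 CPM, 35.4% from 1 to 5 CPM, 42.1% from 5 to 20 CPM and 59.96% from 20 to 100 CPM, where multi-exon genes stood at 43.7%, 58.1%, 67.3% and 83.6%. At 100 CPM or more the order turned: 93.9% ± 2.15 of 19 single-exon genes and 88.3% ± 2.69 of 441 multi-exon genes had a peak. Each of the 6 differences had the same sign in all 6 libraries (exact two-sided sign-flip permutation test, p = 0.03125 each and 0.03125 after Benjamini-Hochberg adjustment over the 6 classes). The same genes were read in every library, so p speaks of the spread among libraries. It does not account for the top class holding only 19 single-exon genes. In settings added after the data were seen, signs were also the same among genes with no neighbour within 1 kb, where the top class held 8 single-exon genes, with exonic length in place of span, and without shRNF8 replicates 3 and 4, where p was 0.125 by the exact test. Over those 8 genes the gap was only 0.00532 points in shRNF8 replicate 4.

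**Figure D2:**
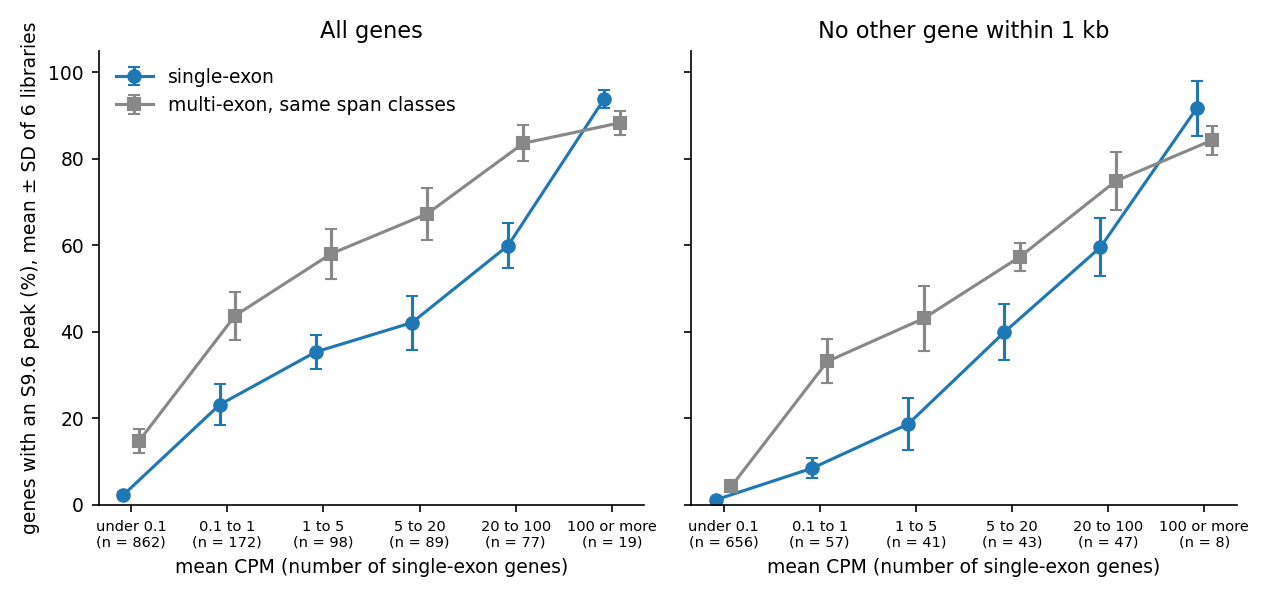
Share of genes (%) with an S9.6 peak by class of mean mRNA CPM, for single-exon genes and multi-exon genes of like span, over all genes in one panel and over genes with no other gene within 1 kb in the other; points are means and error bars SDs over 6 libraries. Over all genes the single-exon share runs from 2.34% under 0.1 CPM to 93.9% at 100 CPM or more; it is below the multi-exon share in every class but the top one, in both panels.

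All 20 single-exon genes at 100 CPM or more had a peak in at least 1 S9.6 library, and 17 had one in all 6. The 3 exceptions, named after their values were seen, were EID1 with a peak in 3 libraries, TAF7 in 2 and SF3B5 in 1. Across the 289 genes at 1 CPM or more, the rank correlation of mean CPM with the number of libraries holding a peak was 0.32. Among the 114 genes with a peak in all 6, mean CPM and mean peak fold had a rank correlation of 0.14. Both are descriptions across genes, which share their libraries and are not independent replicates.

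Peaks were unevenly spread over the gene families by count. Counts below are of members with a peak in at least 1 S9.6 library and in all 6, to be read against 22.8% and 8.62% of all single-exon genes; families differ in mRNA level, and no test was made of a family. The fold named below is the enrichment over local background that the authors' peak caller gave to the highest peak over the gene.

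Several transcription factor families had members with a peak in every library. Of 9 AP-1, C/EBP and early response genes, all at 1 CPM or more, 7 had a peak in all 6 libraries, JUN and JUNB among them. CITED4, a transcriptional co-regulator at 9.001 CPM, had none. Of 40 SOX, FOX and POU factors, which set developmental programmes, 17 reached 1 CPM, 17 had a peak in at least 1 library and 5 had one in all 6: SOX12, FOXE1, SOX4, FOXD1 and SOX11. SOX12, at 115 CPM, had folds of 5.95 and 9.96 in shScr and 15.1, 7.42, 12.2 and 14.998 in shRNF8, while SOX4, at 15.97 CPM, had folds of 8.75 and 10.9 in shScr and 5.58, 4.40, 5.27 and 4.44 in shRNF8. Their hairpin groups overlapped at SOX12 and did not at SOX4. Of 12 basic helix-loop-helix factors 2 had peaks, BHLHA15 and ASCL5, and both had them in all 6. Of 14 zinc finger and BTB genes 5 had a peak and 4 had it in all 6, and KLHL9, at 35.3 CPM, had none.

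Histone and heat-shock genes are given by count. Of 5 replication-independent histones 3 had a peak in all 6 libraries: H1FX at 171 CPM and H1F0 at 146 CPM, both linker histones, and H2AFX at 82.9 CPM, the variant phosphorylated at DNA breaks. H1FX overlaps H1FX-AS1. Of 8 heat-shock genes 3 had a peak and none had it in all 6; HSPA2, an HSP70 family chaperone at 23.9 CPM, had one in 3 libraries.

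Among receptors, Frizzled and chemosensory genes stood at opposite ends by count. Of 6 Frizzled genes, receptors of Wnt ligands, 5 had a peak but none in all 6, and FZD8 at 11.7 CPM and FZD7 at 7.58 CPM had one in 5 libraries. Of 47 other G protein-coupled receptors 11 had a peak and 3 had it in all 6. MC1R, the melanocortin receptor of pigment cells, was one of them at 5.96 CPM. Of 357 olfactory, taste and trace amine receptors 4 had a peak, each in 1 or 2 libraries, and none of the 357 reached 1 CPM. No peak was found over any of 34 keratin-associated proteins, 19 protocadherins, 17 type I interferons or 7 potassium channel genes; these families held few expressed genes, 0, 2, 1 and 1 at 1 CPM or more, and the protocadherin PCDHB2 was highest at 7.60 CPM.

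Noncoding members included many antisense transcripts. Of 83 antisense, intronic and overlapping transcripts, 53 had a peak in at least 1 library and 21 in all 6, and of 3 long noncoding RNAs MALAT1 had one in all 6. Antisense transcripts lie beside or over another gene by their nature, and neither the peaks nor the unstranded counts assign a signal to a strand. Among genes at 1 CPM or more, 61.6% ± 4.95 (SD, n = 6) of 33 long noncoding or antisense genes, 49.0% ± 3.92 of 212 protein-coding genes and 23.2% ± 7.88 of 38 pseudogenes had a peak. Of 27 genes listed under X-linked retrogenes and cancer-testis families 1 had a peak, MAGEF1, which lies on chromosome 3 and not on X.

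**Figure D3:**
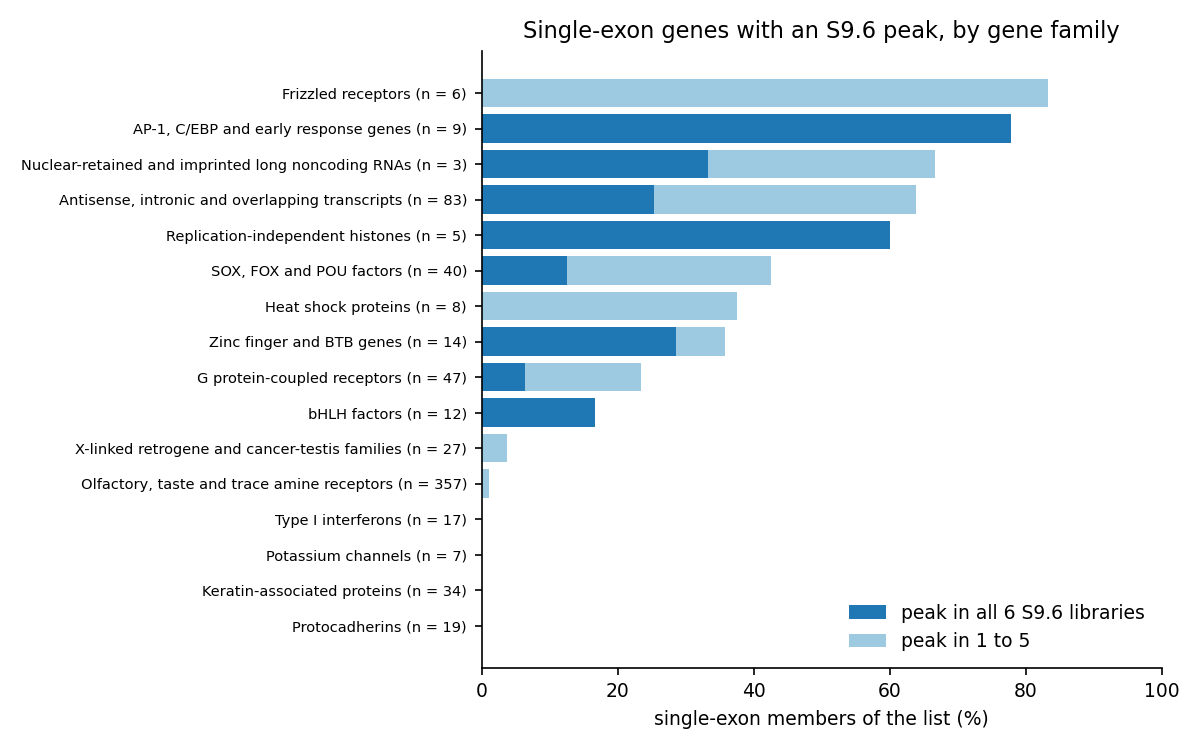
For each gene family, the percentage of its single-exon members with an S9.6 peak in at least 1 library and in all 6. The AP-1, C/EBP and early response genes, with 7 of 9 in all 6 libraries, stand at one end, and protocadherin, keratin-associated, interferon and potassium channel genes, with no peak, at the other.

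The share with a peak differed by the place of the next gene, but not in order of distance. Of the 110 single-exon genes with another gene within 1 kb but none overlapping, 51.2% ± 3.84 (SD, n = 6) had a peak and 37 had it in all 6 libraries. Of the 880 with no gene within 1 kb, 8.81% ± 0.942 had a peak and 45 had it in all 6. Of the 333 that overlapped another gene, 18.9% ± 3.77 had a peak and 32 had it in all 6. At 1 CPM or more the shares were 65.1% of 62 genes with a near neighbour, 40.1% of 159 with none and 48.0% of 68 overlapping genes. Whether the peak belongs to the neighbour was not tested.

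Genes that overlap another gene or are listed with a near-identical copy were left out of the ranking by mean fold. Among the rest, the peaks of highest mean fold lay over genes of several kinds. CCDC85B (chr11:65890404-65891635, hg38, the single exon of a small coiled-coil gene, 168 CPM) had folds of 52.9 and 61.7 in the shScr libraries and 52.6, 30.8, 33.7 and 32.5 in the shRNF8 libraries. Its whole length was covered in all 6 libraries, the highest shRNF8 value lay just under the lower shScr value, and the AP-1 gene FOSL1 on the other strand ends 501 bp away. JUN (chr1:58780791-58784113, minus strand, 262 CPM), a subunit of AP-1, had folds of 54.8 and 54.6 in shScr and 25.1, 28.8, 14.4 and 23.1 in shRNF8. All 4 shRNF8 values lay below both shScr values. In each library 1 peak of 7363 to 7859 bp covered the whole gene and its start, and the summit lay 1420 to 1657 bp into the gene except in shRNF8 replicate 4, where it lay before the start, at −671 bp.

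JUNB (chr19:12791496-12793311, plus strand, 275 CPM), another AP-1 subunit, had folds of 19.7 and 18.9 in shScr and 26.6, 23.7, 28.0 and 24.9 in shRNF8. Here the 4 shRNF8 values lay above both shScr values, the order opposite to JUN. A single peak of 10437 to 22105 bp covered the whole gene in each library, so it reached well beyond JUNB on either side.

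MALAT1 (chr11:65497762-65506512, plus strand, 111 CPM), the abundant nuclear noncoding RNA, had folds of 27.5 and 24.8 in shScr and 35.6, 17.9, 33.3 and 25.5 in shRNF8, and the groups overlapped. Its summits lay 2307 to 3192 bp inside the gene in all 6 libraries. The start was covered only in shRNF8 replicates 3 and 4, where the peaks were also widest. HEXIM1 (chr17:45147317-45152101, plus strand, 39.8 CPM), an inhibitor of the elongation factor P-TEFb, had folds of 18.8 and 13.9 in shScr and 22.5, 15.9, 30.1 and 24.6 in shRNF8. Its summits also lay inside the gene, 1884 to 2439 bp from the start. PCBP1 (chr2:70087453-70089202, plus strand, 509 CPM), an RNA-binding protein born by retroposition, had folds of 11.1 and 11.5 in shScr and 31.5, 12.6, 17.4 and 15.7 in shRNF8; the summit of the highest peak lay beyond the gene's end in all 4 shRNF8 libraries, and before or within it in the shScr libraries.

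SOWAHC (chr2:109614334-109618987, plus strand, 111 CPM) had folds of 27.95 and 27.1 in shScr and 29.98, 20.2, 17.8 and 17.3 in shRNF8. Its summits clustered at the start, from −591 to 23 bp, and SEPT10 starts 128 bp away on the other strand. PURB (chr7:44876293-44885385, minus strand, 111 CPM), a single-stranded nucleic acid binding protein with a 9093 bp exon, had folds of 21.8 and 15.1 in shScr and 17.1, 7.14, 11.9 and 9.94 in shRNF8. Its peaks covered 9.96% to 17.8% of the gene, always the start. At C9orf172 the highest overlapping peak had its summit past the gene's end in all 6 libraries, 3553 to 6135 bp from the start of a gene 2931 bp long. At MC1R, 3099 bp long, the summit lay past the end in 4 libraries, up to 8562 bp from the start.

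Abundant mRNA without any peak was seen at 16 of the 98 single-exon genes at 20 CPM or more. LDOC1 (chrX:141175746-141177214, minus strand, a retrotransposon-derived gene) stood at 87.3 CPM, CHML at 87.0, the ubiquilin UBQLN2 (chrX:56563593-56567010, plus strand) at 78.4, ATXN7L3B at 70.7 and TMEM158 (chr3:45224464-45226322, minus strand) at 61.3. None of these 5 had a peak in any S9.6 or RNase-treated library. CHML lies within OPN3, so its counts cannot be told apart from those of the host by strand.

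Within the gene, the summit of the highest peak most often lay near the start. Divided into 3 equal parts, the part nearest the start held 40.7% ± 6.75 (SD, n = 6) of the summits, the middle 19.7% ± 3.69 and the part nearest the end 7.25% ± 1.49, while 24.0% ± 5.78 lay before the start and 8.37% ± 4.31 beyond the end. Peak-bearing multi-exon genes spanning under 10 kb had 29.0%, 15.3% and 22.1% in these parts, 15.9% before the start and 17.6% beyond the end. These places were not tested, and here the multi-exon genes were not matched to the single-exon genes on CPM, or on span below 10 kb. The median single-exon gene with a peak had 49.0% ± 11.5 of its length covered, and 18.3% ± 9.07 were covered whole.

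**Figure D4:**
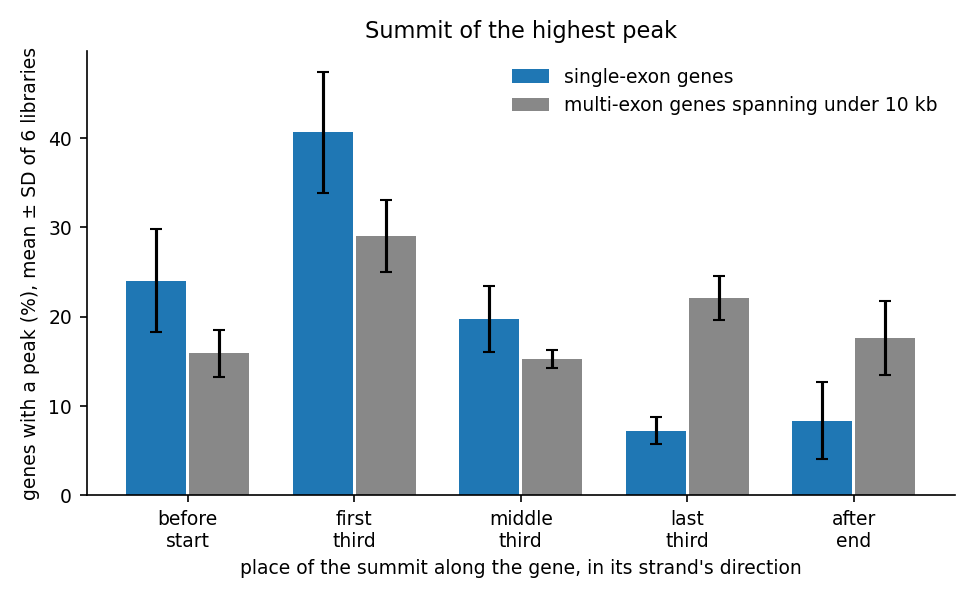
Place of the highest peak's summit along the gene, as a percentage of genes with a peak; bars are means and error bars SDs over 6 S9.6 libraries, for single-exon genes and for multi-exon genes spanning under 10 kb. The part nearest the end holds 7.25% of single-exon and 22.1% of multi-exon summits. Multi-exon genes were not matched on CPM, or on span below 10 kb.

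A peak covered the annotated start at 67.2% ± 4.91 (SD, n = 6) of single-exon genes with a peak and at 72.7% ± 5.84 of multi-exon genes of like span and CPM. The difference of −5.49 percentage points missed the threshold (exact two-sided sign-flip permutation test, p = 0.0625). With exonic length in place of span it turned to 21.1 points higher in single-exon genes (p = 0.03125 by the same exact test). Span was not matched in that setting. All multi-exon genes that met the filters spanned a median of 26210 bp, and single-exon genes 1399 bp.

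Differences between the hairpins in the class as a whole were smaller than the spread between libraries. The share with a peak was 15.2% ± 2.08 (SD, n = 2) in shScr and 14.7% ± 1.87 (SD, n = 4) in shRNF8, a difference of −0.416 percentage points (exact two-sided permutation test, p = 0.667, smallest possible 0.0667). The part of all peaks that lay over single-exon genes was 0.570% ± 0.00552 and 0.615% ± 0.0708 (exact permutation test, p = 0.533). The gap to multi-exon genes was −15.3 ± 0.7101 and −15.6 ± 2.28 percentage points (exact permutation test, p = 1.0). The median fold of the highest peak was 8.997 and 9.09 in the shScr libraries and 8.75, 7.16, 9.88 and 7.997 in the shRNF8 libraries (exact permutation test, p = 0.533). Groups of 2 and 4 libraries cannot reach a p under 0.0667, so none of these tests could pass 0.05.

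Some genes had a listed peak under 1 hairpin and none under the other, by count. Peaks in all 4 shRNF8 and neither shScr library were found at 5 single-exon genes (0.378%, against 0.495% of all genes): MAGEF1, FLJ30679, INAFM2, UTP3 and EID2. MAGEF1, of the MAGE family of ubiquitin ligase regulators, had folds of 11.2, 4.62, 7.20 and 6.46. EID2, a transcriptional inhibitor, had folds of 8.28, 4.76, 3.11 and 4.10. Peaks in both shScr and no shRNF8 library were found at another 5 (0.378%, against 1.01% of all genes): PRORSD1P, TAF7, GPR27, GAS5-AS1 and ADRB1. TAF7 (chr5:141318490-141320784, minus strand), a subunit of the general transcription factor TFIID, had folds of 6.85 and 7.52 in shScr. Its mRNA was 136 ± 7.48 CPM in shScr and 150.1 ± 9.72 CPM in shRNF8 (SD, n = 3 each; log2 change 0.14, edgeR adjusted p = 0.396). Without shRNF8 replicates 3 and 4 the counts became 7 and 14 genes (0.529% and 1.06%, against 0.899% and 3.27% of all genes).

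The fold of the highest peak was compared gene by gene over the 5958 genes with a peak in all 6 libraries, 114 of them single-exon, with limma on log2 folds after the library medians were aligned, a test chosen after the data were seen. It called 4 genes lower (0.0671%) and 5 higher (0.0839%) in shRNF8, and the only single-exon one was KMT2E-AS1. KMT2E-AS1 (chr7:105010542-105014141, minus strand, 1.54 CPM), the transcript antisense and head to head with the chromatin regulator KMT2E, had folds of 35.5 and 35.8 in shScr and 8.97, 6.40, 12.02 and 9.35 in shRNF8. All 4 shRNF8 values lay far below both shScr values (log2 difference −2.02, SE 0.25, limma adjusted p = 0.0111). The peak spans the 49 bp between the 2 genes, and KMT2E was called with the identical values. Without shScr replicate 1 or 2 the log2 difference was −2.05 and −1.98 (limma adjusted p = 0.317 and 0.470). There the lone shScr library is assumed to vary like the shRNF8 libraries, which alone supply the spread, and none of the 5958 genes was called. The call was kept without shRNF8 replicates 3 and 4 (adjusted p = 0.00165). KMT2E-AS1 mRNA was 1.90 ± 0.503 CPM in shScr and 1.18 ± 0.332 CPM in shRNF8 (SD, n = 3 each; log2 change −0.69, edgeR adjusted p = 0.270).

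Other single-exon genes with shRNF8 folds below both shScr values, CCDC85B and SOX4 among them, did not pass limma's threshold, and JUN, H1F0 and RHOB are given as examples, chosen after their values were seen. JUN had a log2 difference of −1.33 (SE 0.33, adjusted p = 0.110). H1F0, with folds of 21.4 and 27.1 in shScr and 6.60, 12.4, 7.04 and 5.84 in shRNF8, had a difference of −1.68 (adjusted p = 0.0837), and in shRNF8 replicate 2 the summit lay past the gene's end. RHOB, a stress-induced small GTPase, had folds of 22.6 and 22.7 in shScr and 15.1, 7.89, 6.97 and 6.24 in shRNF8 (log2 difference −1.44, adjusted p = 0.0913). H1F0 passed without shRNF8 replicate 2 (adjusted p = 0.0299) and RHOB without shRNF8 replicate 1 (adjusted p = 0.0280).

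Over the 114 genes the median log2 difference was −0.06. With medians aligned, shScr lay above shRNF8 without overlap at 24 of them (21.1%, against 13.0% of all 5958 genes) and shRNF8 above shScr at 13 (11.4%, against 13.9%). Folds over the 114 genes ranked most alike in shRNF8 replicates 3 and 4 (Spearman rho 0.86) and in the 2 shScr libraries (0.79), with 0.44 to 0.66 for every other pair, as a description over genes.

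**Figure D5:**
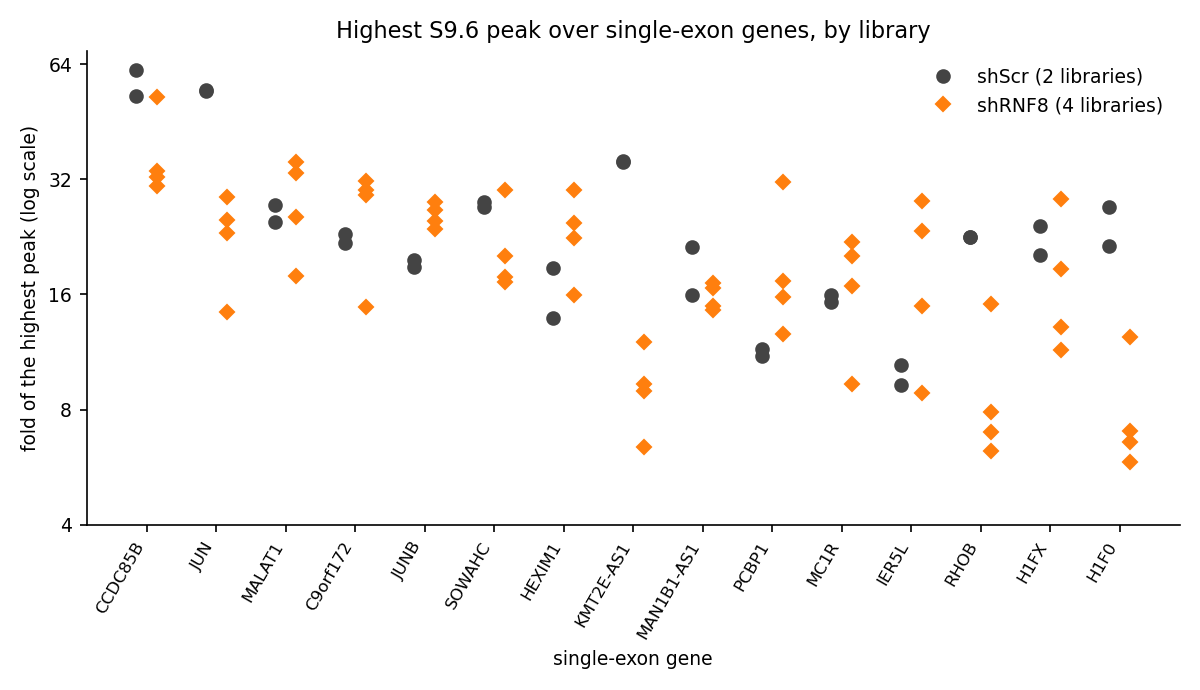
Fold enrichment of the highest S9.6 peak over the single-exon genes named on the axis, on a log axis, 1 point per library, for shScr (2 libraries) and shRNF8 (4 libraries). At KMT2E-AS1 and JUN all shRNF8 points lie below the shScr points, and at JUNB they lie above.

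Peaks over single-exon genes were nearly absent after RNase treatment. The 6 treated libraries held 254 to 1912 peaks each, and a peak lay over 1 and 1 single-exon genes in shScr and over 0, 0, 4 and 0 in shRNF8. The share of genes with a peak was 14.9% ± 1.74 (SD, n = 6) without and 0.0756% ± 0.117 (SD, n = 6) with treatment (exact two-sided permutation test within hairpins, p = 0.00476, the smallest possible). In all, 5 single-exon genes (0.378%) had a peak in a treated library, against 2.65% of all genes: COPG2IT1, ACTL9, OTUD6A, RHPN1-AS1 and PTGES2-AS1. All genes are mostly longer ones. Among multi-exon genes of like span and CPM the share was 0.0148% to 0.405% per treated library. Single-exon genes of the same classes stood at 0 to 0.304%. COPG2IT1, which overlaps COPG2, had folds of 6.74 in shScr replicate 2 and 8.02 in shRNF8 replicate 3 and no S9.6 peak in any untreated library. RHPN1-AS1 and PTGES2-AS1 also had a peak in all 6 untreated libraries.

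mRNA of single-exon genes was compared between hairpins over the 349 members that passed the filter on low counts. edgeR's quasi-likelihood test called 1 member higher and 4 lower in shRNF8 at an adjusted p under 0.05, where 0.97% and 1.57% of all 14018 genes were called in these directions and 2.54% in either. NAP1L3, of the nucleosome assembly protein family, stood at 25.1, 22.8 and 22.4 CPM in shScr and 31.6, 30.5 and 34.6 CPM in shRNF8, with no overlap (log2 change 0.46, SE 0.11, edgeR adjusted p = 0.0481). OTUD1, a deubiquitinase (chr10:23439269-23442381), stood at 46.0, 54.2 and 49.2 CPM in shScr and 35.2, 32.8 and 33.1 CPM in shRNF8, also with no overlap (log2 change −0.56, SE 0.10, edgeR adjusted p = 0.0154). CRIPAK fell by 0.70 on the log2 scale (edgeR adjusted p = 0.0481), C1orf233 fell by 0.47 (0.0407) and THRIL fell by 0.46 (0.0451). THRIL overlaps BRI3BP, whose log2 change was −0.53 (adjusted p = 0.0634), and their reads cannot be told apart.

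Of these 5 genes, OTUD1 and C1orf233 had an S9.6 peak in all 6 libraries, CRIPAK in 3, NAP1L3 in 2 and THRIL in none. OTUD1 folds were 4.56 and 11.6 in shScr and 8.298, 6.74, 5.19 and 6.49 in shRNF8, so the groups overlapped. MALAT1 missed the threshold (129 ± 17.3 CPM in shScr, 93.7 ± 11.9 CPM in shRNF8, SD, n = 3 each; log2 change −0.46, edgeR adjusted p = 0.0669). JUN also missed it, with 444, 226 and 244 CPM in shScr and 249, 211 and 200.3 CPM in shRNF8, where shScr replicate 1 stood far above the rest (edgeR adjusted p = 0.324). The median log2 change was 0.03 over the 349 members and −0.0048 over all genes tested. It was 0.03 over the 93 tested members with a peak in all 6 libraries, −0.03 over the 124 with a peak in some and 0.12 over the 132 with none.

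The mRNA calls changed with single libraries. Without shScr replicate 1, 71 members were called, 35 higher and 36 lower (3865 of all genes), and without any other single mRNA library none was called.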

How the data were processed

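S9.6 and RNase-treated DRIP-seq and mRNA-seq of MDA-MB-436 cells were analysed from the processed files, grouped by sample title. The deposited table holds raw fragment counts per gene, made with featureCounts on hg38 without a strand option, per the file headers. Each DRIP library has its own peak list, in which the authors give a score, a fold (a linear ratio over local background), and −log10 of p-values and q-values; the lowest −log10 q in the S9.6 lists was 2.00 to 2.03. The submitters' processing notes name Trim Galore 0.6.6, Bowtie2 2.2.6, STAR 2.7.9a, SAMtools 1.14, Picard 2.10.9, MACS2 2.2.7.1, deepTools 3.5.1 and Subread 2.0.1, with no roles. CPM here is edgeR's count per library-size unit after TMM scaling.

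The members, gene lists and rules were chosen with earlier results of these data known. Exons were counted from the annotation columns of the count table. Multi-exon genes were weighted to the single-exon genes' classes of span (edges 1000, 1500, 2000, 3000, 5000 and 10000 bp) and mean CPM (edges 0.1, 1, 5, 20 and 100). Shares per library were compared by exact two-sided permutation tests over all arrangements. SciPy 1.17.1 adjusted the p-values of the CPM classes. Counts were filtered with filterByExpr and tested with edgeR 4.0.16 (R 4.3.3, glmQLFit and glmQLFTest, group the only term) over 14018 genes, with Benjamini-Hochberg adjustment and a threshold of 0.05. limma 3.58.1 compared log2 peak folds. DESeq2 1.42.0, other scalings, no filter, the replicate number as a block and leaving out each library were alternatives. The models were tested on simulated data. Genes named were, by rule, those of highest mean fold, called in a test, highest in CPM without a peak, and with peaks under 1 hairpin or after RNase. To these came the highest of each of 16 lists with and without a peak, and the longest gene with a peak in every S9.6 library. The ranking by mean fold left out genes that overlap another gene or are listed with a near-identical copy. Same-numbered mRNA libraries did not deviate together.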

Additional observations from a re-analysis of the deposited data

Results flagged for a closer look

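In 7 of the 43 groups of 4 libraries examined, 1 library stood apart from the other 3 by most of the group's range. About 1 in 20 groups would be marked if groups were independent and values normally distributed. These groups share their libraries, so the count cannot be read against that rate. After RNase treatment, 0.302% of single-exon genes had a peak in shRNF8 replicate 3, against 0 in the other 3 shRNF8 libraries, and 0.262% of its peaks lay over such genes, against 0. Where the other 3 values are 0, any value above 0 is marked. This treated shRNF8 replicate 3 also held the most peaks of any treated library, 1912. Among untreated shRNF8 libraries, replicate 1 was high at CCDC85B, with a fold of 52.6 against 30.8 to 33.7, and at ASCL5, with 8.77 against 5.47 to 5.58. Replicate 2 was low at C9orf172, with a fold of 14.9 against 29.0 to 31.6, and high at LPP-AS2, with 5.48 against 4.22 to 4.40. Replicate 3 was high at ZBTB42, with a fold of 23.6 against 8.03 to 8.19.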

How the results depend on the processing

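The deficit of single-exon against like multi-exon genes kept its sign in every alternative run, from −23.6 percentage points with classes of span alone to −6.87 among isolated genes, and leaving out each library gave −15.9 to −14.9 (exact p = 0.0625, the smallest 5 libraries allow); without shRNF8 replicates 3 and 4 it was −14.5. In the same setting the CPM classes gave −11.6, −19.9, −19.4, −23.4, −23.6 and 5.44 points. The share with a covered start passed the threshold among protein-coding genes (−8.42) and with classes of span alone (−5.03), turned to 21.1 with exonic length, shrank to −0.465 at folds of at least 5 (exact p = 0.781), −1.74 at −log10 q of at least 5 (exact p = 0.312) and −3.11 at an equal number of peaks (exact p = 0.188), and ran from −6.60 to −4.87 without single libraries. Hairpin differences that missed the threshold changed sign: the share with a peak to 0.265 at an equal number of peaks and from −1.89 to 1.06 without single libraries; the gap to multi-exon genes to 1.93 with summits inside the gene, 0.436 with exonic length, 1.65 without shRNF8 replicates 3 and 4, and from −0.897 to 0.640 without single libraries; the share of peaks to −0.0187 with summits inside, and 0.0185 to 0.0667 without single libraries; the median fold to 0.0903 at folds of at least 5, and from −0.990 to 0.0563 without single libraries. The 1.93-point gap with summits inside the gene reached the smallest p possible (exact permutation test, p = 0.0667). Among isolated genes the hairpin difference in median fold was −2.07 (exact permutation test, p = 0.0667). There the medians were 9.87 and 9.24 in shScr and 8.42, 7.18, 7.63 and 6.72 in shRNF8. S9.6 against RNase gave 14.1 to 15.6 points without single libraries, 11.8 at −log10 q of at least 5, 10.6 at folds of at least 5, 11.1 with summits inside the gene, 13.9 for protein-coding genes and 8.82 among isolated genes. Genes with a peak in every S9.6 library numbered 114, but 64 at folds of at least 5, 41 with summits inside the gene and 45 among isolated genes, and 116 to 124 without single libraries. The limma count of 9 was 2 without aligning medians, 0 to 18 without single libraries and 185 without shRNF8 replicates 3 and 4, when C6orf226, RRS1 and ZNHIT2 joined KMT2E-AS1.

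mRNA calls numbered 356 over all genes, 5 of them single-exon; they became 648 and 10 without the filter, 852 and 13 with DESeq2 (5 higher and 8 lower), and 46 to 3865 and 0 to 71 without single libraries, where shScr replicate 1 gave the highest. With the replicate block, 501 genes were called and 5 single-exon genes; C1orf233 (adjusted p = 0.0610), NAP1L3 (0.0624) and THRIL (0.0557) were not among them. With the replicate number as a block in the peak comparisons, the hairpin difference in share was −2.003 points (exact p = 0.5) and the RNase difference 14.8 (exact p = 0.03125). mRNA libraries of the same number had correlations of −0.054, 0.108 and −0.233, and 1 of 6 correlated best with its own number. Several of these alternatives were chosen after seeing the data: leaving out shRNF8 replicates 3 and 4, the settings of the limma and all-library counts, and the CPM classes among isolated genes and with exonic length. The cause was not tested, except that fewer genes or libraries enter where a setting removes them.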
